A study of Mus musculus with 2 samples.

Results

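The genes described here are those whose symbol in the array platform's annotation starts as a numbered Rab, Vamp, Stx, Snap, Syt or Sytl, or with Stxbp. These names cover the Rab GTPases and the SNARE proteins with their closest partners. By this name rule 111 of 16390 genes on the array belong to the set, measured by 113 probes. They comprise 52 Rab GTPases, 11 regulators or effectors named after a Rab, 5 VAMPs, 12 syntaxins, 6 syntaxin-binding proteins, 4 SNAPs, 16 synaptotagmins and 5 synaptotagmin-like proteins. The rule rests on names alone and uses no measured value, though it was chosen with earlier results of these data known. As a name rule it also takes in Snap91, a clathrin adaptor that is no SNARE, and it misses genes whose older name on the platform differs.

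A Rab GTPase in its GTP-bound form recruits effector proteins that move, tether and dock a vesicle. A VAMP on the vesicle then pairs with a syntaxin and a SNAP on the target membrane, and this SNARE bundle drives fusion. Syntaxin-binding proteins of the Munc18 kind hold and prime syntaxins, synaptotagmins act as calcium sensors of fusion, and synaptotagmin-like proteins tie Rab27 on secretory granules to the plasma membrane. In the small intestine, Paneth cells and goblet cells release antimicrobial granules and mucus by this route, and enteroendocrine cells release hormones.

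Gene expression was measured on 2 two-colour arrays in 3 populations sorted from the small intestinal epithelium of mice carrying Atoh1-crePGR, Lgr5-EGFP-IRES-creERT2 and Rosa26-tdTomato. All 3 populations came from the same genotype and from mice given RU486 into the peritoneum on 5 consecutive days, which activated the Atoh1-driven recombinase, and were collected 20 days after recombination. The tdTomato-only cells (EGFP-ve/tdTomato+ve) descend from cells that expressed Atoh1, the transcription factor of the secretory lineage, and lack EGFP from the Lgr5 locus. The double-positive cells (EGFP+ve/tdTomato+ve) share that descent and carry EGFP. The EGFP-only cells (EGFP+ve/tdTomato-ve) carry EGFP without the recorded descent. The tdTomato mark reaches cells in which this Cre driver was active during the injections, and their progeny, so other Atoh1 cells carry no mark. Every population is 1 biological replicate, sorted from the pooled cells of 4 mice. On each array a tdTomato population in Cy3 was set against EGFP-only RNA in Cy5, without a dye swap. A comparison with the EGFP-only cells therefore rests on 1 array. The ratios below have no replicate error, no test was made, and genes were counted by size, higher from a log2 ratio of 1 upwards and lower from -1 downwards. In RNA from a sorted pool, fewer cells of a type and less RNA per cell cannot be told apart.

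The EGFP-only population was read on both arrays, and the labels do not say whether both received the same extract or labelling reaction. Over 92 member probes above background in both readings, the SD of their log2 difference was 0.0809, against 0.0828 over all 15639 such probes. This SD is technical spread of the Cy5 channel and holds none of the Cy3 channel, the sorting or the mice. The largest difference of a member was 0.47, for Rab9, which encodes a GTPase of late endosomes. A probe counted as above background past the mean plus 2 SD of the blank spots, at intensities of 85.4 in the tdTomato-only channel, 82.2 in the double-positive channel and 75.7 and 74.1 in the EGFP-only channels. By this limit 96 member probes were above background in tdTomato-only cells, 102 in double-positive cells, and 92 and 94 in EGFP-only cells. Of the 111 genes, 91 had a ratio on the tdTomato-only array, 93 on the double-positive array and 91 on both, and 8 were above background in no channel. No member spot was saturated. Lgr5 itself had log2 ratios to EGFP only of -0.89 in tdTomato-only and 0.26 in double-positive cells.

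Promoter sequences are shown for members at least 2-fold higher on an array, a choice made after their values were seen. The RefSeq table (GRCm38.p6) held a promoter, 250 bases before to 50 after the start, for 3 of these 5 genes; Sytl2 and Rab27b are named only. Capitals mark 2 motifs. CAGCTG is a form of the E-box that basic helix-loop-helix factors such as Atoh1 bind, and reads the same on both strands. ACGTG, searched on both strands, is the core bound by Xbp1 and related factors of the unfolded protein response; in CACGTG it occurs once on each strand, overlapping. CAGCTG was in 16.3% of 32851 promoters of this length and ACGTG in 19.6%. The Rab3d window, chr9:21918134-21918433 on the minus strand, held neither motif. Rab27a has 2 listed starts, with windows at chr9:73044560-73044859 and chr9:73063898-73064197 on the plus strand. The window of the upstream start held neither motif, and that of the other start held 1 CAGCTG and 1 CACGTG. The Sytl1 window, chr4:133263038-133263337 on the minus strand, held 2 copies of CAGCTG. A match is a run of letters and not a measured site.
Rab3d: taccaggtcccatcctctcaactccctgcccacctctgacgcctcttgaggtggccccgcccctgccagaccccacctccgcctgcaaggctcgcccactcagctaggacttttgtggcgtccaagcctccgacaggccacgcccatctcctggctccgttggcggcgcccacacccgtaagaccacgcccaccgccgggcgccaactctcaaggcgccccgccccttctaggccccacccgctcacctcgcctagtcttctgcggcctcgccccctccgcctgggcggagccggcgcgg
Rab27a upstream start: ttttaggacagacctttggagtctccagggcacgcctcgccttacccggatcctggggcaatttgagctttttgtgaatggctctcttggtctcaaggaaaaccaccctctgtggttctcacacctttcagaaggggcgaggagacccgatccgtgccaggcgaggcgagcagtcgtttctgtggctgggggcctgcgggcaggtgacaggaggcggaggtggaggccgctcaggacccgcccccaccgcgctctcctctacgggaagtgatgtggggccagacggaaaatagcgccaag
Rab27a other start: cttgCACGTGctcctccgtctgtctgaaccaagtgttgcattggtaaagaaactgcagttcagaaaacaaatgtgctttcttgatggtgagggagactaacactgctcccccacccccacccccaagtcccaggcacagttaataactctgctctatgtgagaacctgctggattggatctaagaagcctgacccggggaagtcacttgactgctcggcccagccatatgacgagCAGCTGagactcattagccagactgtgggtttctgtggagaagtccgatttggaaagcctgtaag
Sytl1: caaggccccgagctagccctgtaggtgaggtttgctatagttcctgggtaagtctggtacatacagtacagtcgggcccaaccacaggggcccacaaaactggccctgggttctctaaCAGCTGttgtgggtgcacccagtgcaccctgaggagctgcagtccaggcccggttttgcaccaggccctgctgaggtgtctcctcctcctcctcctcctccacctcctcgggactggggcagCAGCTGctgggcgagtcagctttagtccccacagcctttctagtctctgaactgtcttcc

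In tdTomato-only cells, 5 members were at least 2-fold above EGFP-only cells: the granule GTPases Rab3d, Rab27a and Rab27b, and the Rab27 effectors Sytl1 and Sytl2. None was 2-fold lower. These 5 are 5.49% of the 91 measured members, while among all 11381 measured genes the shares past 2-fold were 6.15% upwards and 1.19% downwards, so the share of members past 2-fold was near that of all genes. In double-positive cells 3 of 93 members, Rab3d, Sytl1 and Sytl2, were at least 2-fold higher and none 2-fold lower, against 5.10% and 0.340% of all 11774 genes. Both comparisons use the EGFP-only RNA as their denominator, so the values of a gene in them are not independent.

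Rab3d, a GTPase of secretory granules in exocrine glands, was the highest Rab on both arrays. Its spot intensity was 1202 in tdTomato-only and 1077 in double-positive cells, against 307 and 317 in EGFP-only cells on the same arrays. It was thus 5.63-fold higher in tdTomato-only and 5.14-fold higher in double-positive cells, with log2 ratios of 2.49 and 2.36. The difference between these populations was 0.13 on the log2 scale, and the authors' deposited table gave nearly the same log2 ratios, 2.54 and 2.49. The other Rab3 genes, best known from neurons and endocrine cells, did not reach 2-fold higher in any setting tried. Rab3a had intensities of 128 in tdTomato-only and 124 in double-positive cells, against 102 and 106 in EGFP-only cells, and log2 ratios of 0.37 and 0.34, which were 0.88 and 0.77 in the authors' deposited table. Rab3b (-0.04 and 0.07) and Rab3c (-0.19 and -0.25) were close to background in every channel, with intensities from 76.6 to 90.2. The authors' deposited table gave 0.29 and 0.97 for Rab3b and -0.49 and -1.05 for Rab3c, so that at this brightness a ratio depends on how background was removed. Rab37, another granule GTPase, had log2 ratios of 0.20 in tdTomato-only and 0.10 in double-positive cells.

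Rab27a and Rab27b, the GTPases that dock granules at the plasma membrane, were the members with the largest difference between tdTomato-only and double-positive cells. Rab27a had an intensity of 274 in tdTomato-only and 163 in double-positive cells, against 114 and 112 in EGFP-only cells. It was 3.06-fold higher than EGFP only in tdTomato-only cells and 1.73-fold in double-positive cells, log2 ratios of 1.61 and 0.79. Rab27b had 621 in tdTomato-only and 321 in double-positive cells, against 267 and 272 in EGFP-only cells. It was 3.21-fold higher in tdTomato-only and 1.59-fold in double-positive cells, log2 ratios of 1.68 and 0.67. Rab27a in double-positive cells passed 2-fold in the authors' deposited table (1.45), with an offset of 0 (1.37) and with the blank mean subtracted (1.47), while Rab27b did so under no setting tried (highest 0.83).

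The synaptotagmin-like proteins, which carry Rab27 effector domains, had the highest median of the 8 families: a log2 ratio of 1.31 in tdTomato-only and 1.01 in double-positive cells over 4 measured genes, against -0.01 over all genes on each array. Sytl2 had an intensity of 487 in tdTomato-only and 315 in double-positive cells, against 91.6 and 90.5 in EGFP-only cells, which is close to the background limit. It was 7.50-fold higher in tdTomato-only and 4.84-fold higher in double-positive cells (log2 ratios 2.91 and 2.27), and the authors' deposited table gave log2 ratios of 4.44 and 3.90. Sytl1 had 401 in tdTomato-only and 296 in double-positive cells, against 142 and 135 in EGFP-only cells, a rise of 3.77-fold and 2.95-fold with log2 ratios of 1.91 and 1.56. Sytl4, which encodes granuphilin of insulin granules, had 183 in tdTomato-only and 140 in double-positive cells, against 129 and 129 in EGFP-only cells, and log2 ratios of 0.71 and 0.31. Sytl3 had 116 and 115 against 84.5 and 87.4, and log2 ratios of 0.42 and 0.45. The authors' deposited table put Sytl3 past 2-fold on both arrays (1.51 and 1.44) and Sytl4 in tdTomato-only cells (1.08). Sytl5 was above background in the Cy3 populations alone, with 140 in tdTomato-only and 91.7 in double-positive cells, against 70.8 and 70.9 in EGFP-only cells. It was at least 2.02-fold higher in tdTomato-only cells and at least 1.18-fold higher in double-positive cells. These bounds set the brighter level against the higher of the dim spot's own level and the dimmest level still above background on that array, and they are open to dye bias. Where the dim spot's own level was the higher, as for Sytl5 in double-positive cells, the bound equals the fitted ratio.

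**Figure D1:**
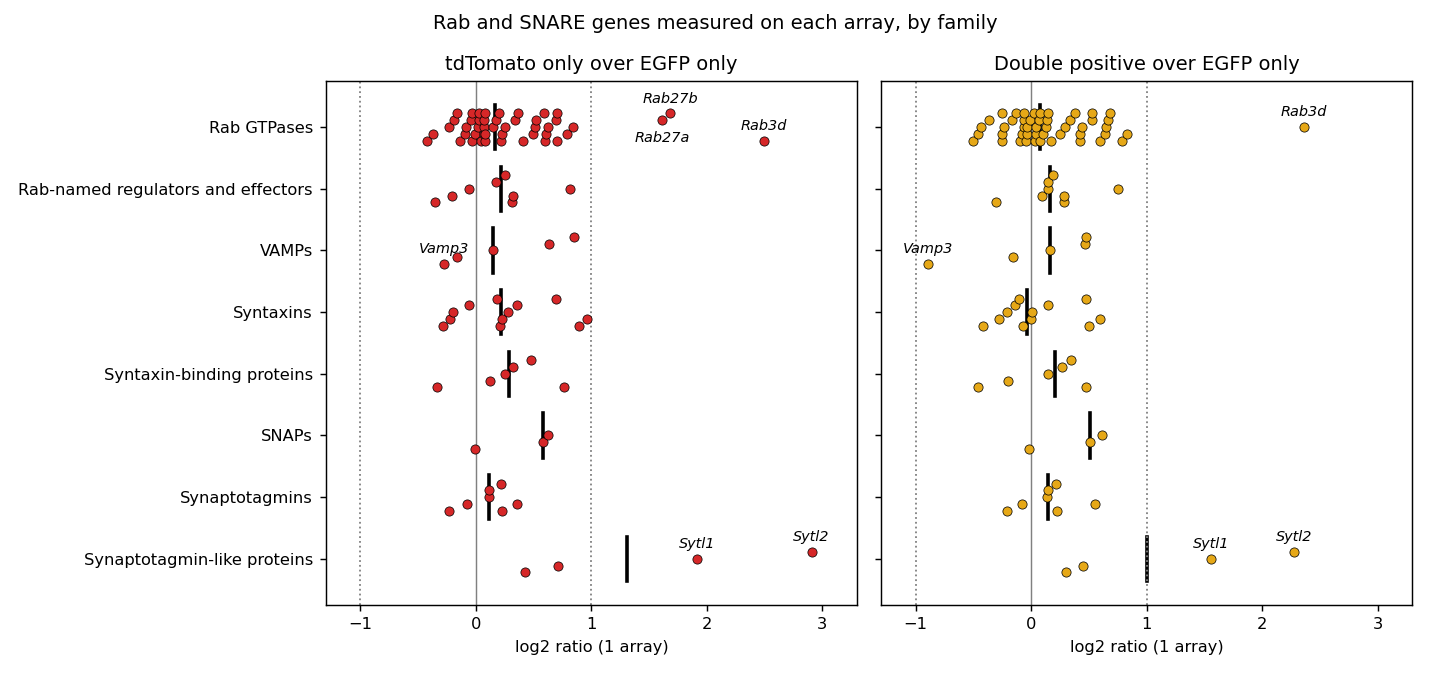
Log2 ratio of each measured member to EGFP-only cells (horizontal axis) by family (rows), in tdTomato-only cells on the left and double-positive cells on the right, with 1 point per gene, black bars at family medians and dotted lines at 2-fold. Rab3d, Sytl1 and Sytl2 lie past 2-fold in both panels, Rab27a and Rab27b in the tdTomato-only panel alone, and most points lie between -0.5 and 1.

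Marker genes of cell types moved as well. In the goblet cell list, 14 of 15 measured genes passed 2-fold above EGFP only in tdTomato-only cells (median log2 ratio 3.64) and 13 of 16 in double-positive cells (2.35). The lowest on both arrays was the mucin gene Muc2, at 0.16 in tdTomato-only and -0.40 in double-positive cells. The Paneth cell list had 8 of 9 measured genes past 2-fold in tdTomato-only (median 4.03) and 9 of 9 in double-positive cells (4.19). The T cell and intraepithelial lymphocyte list had 6 of 13 measured genes at least 2-fold higher in tdTomato-only cells (0.96) and 13 of 13 in double-positive cells (1.89), while Cd3e, a defining marker, was not above background in any channel. Levels after normalization, not raw intensities, were also summed over every probe of a list, above background or not. For the 17 goblet genes on the array these sums were 444037 in tdTomato-only and 248526 in double-positive cells, against 33311 and 38738 in EGFP-only cells. For 9 Paneth genes they were 459823 and 548124, against 31092 and 30246. Spots of the Paneth genes Ang4, Itln1 and Pla2g2a and of the goblet gene Spink4 lay at the scanner's ceiling in both Cy3 populations, Mmp7 in double-positive cells alone, and Zg16 and Tff3 in tdTomato-only cells alone. The Paneth medians, which are those of Ang4, and the Paneth and goblet sums of the Cy3 populations are therefore lower limits and cannot be ranked between these populations. For 15 lymphocyte genes the sums were 7709 and 17710, against 2139 and 2115. The medians of the other lists in tdTomato-only and double-positive cells were 2.37 and 1.92 for enterocytes, -0.95 and -0.03 for stem cells, 0.51 and 0.19 for myeloid or mast cells, -0.02 and -0.39 for tuft cells and -0.01 and 0.19 for B or plasma cells. The part of these cell types in the Rab and SNARE values was not tested.

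Outside the granule Rabs and their effectors no measured member passed 2-fold from EGFP only under the main processing. The furthest were Stx5a at 0.96 in tdTomato-only and Vamp3 at -0.90 in double-positive cells. Counted by sign, 66 of 91 measured members were above 0 in tdTomato-only cells (72.5%, against 48.2% of all genes) with a median log2 ratio of 0.21, and 59 of 93 in double-positive cells (63.4%, against 48.9%) with a median of 0.14. This shift depends on the processing. With median centring in place of loess the medians were -0.0079 and -0.069, and 23 members above 0 turned below it on each array. The highest of them were Rab1 at 0.52 in tdTomato-only and Rab14 at 0.59 in double-positive cells. The authors' deposited ratios, median-centred after blank subtraction, had medians of 0.29 in tdTomato-only and 0.21 in double-positive cells. By sign, 62 of 95 members in the authors' deposited table (65.3%, against 48.2% of all genes) were above 0 in tdTomato-only cells and 57 of 94 (60.6%, against 49.6%) in double-positive cells. Raw intensities of the dyes are not on 1 scale: after loess, a gene can have the lower raw value in Cy3 and a ratio above 0.

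Among Rabs of the recycling and apical routes, Rab11a, of recycling endosomes, had 2356 in tdTomato-only and 1739 in double-positive cells, against 2160 and 2185 in EGFP-only cells, with log2 ratios of 0.79 and 0.42. Median centring turned the double-positive value to -0.28. Rab25, the epithelial relative of Rab11a, had 1141 and 876 against 1604 and 1772, with log2 ratios of 0.08 and -0.36. The tdTomato-only value of Rab25 turned to -0.23 in the authors' deposited table, -0.50 with median centring and -0.08 with quantile normalization. Rab8a, which acts in apical delivery, had 761 and 526 against 1086 and 1062, with log2 ratios near 0 in tdTomato-only cells and of -0.46 in double-positive cells. Rab10, a GTPase of basolateral traffic, had 0.51 and 0.65, which were -0.0012 and 0.10 with median centring. Rab33b of the Golgi was at 0.60 in tdTomato-only and 0.83 in double-positive cells, and at 1.15 in double-positive cells in the authors' deposited table. The lowest Rabs were Rab32, a GTPase of lysosome-related organelles, at -0.42 and -0.43, and Rab19 at -0.37 and -0.50. None of these passed 2-fold under the main processing. Over the whole family the median log2 ratio was 0.16 in tdTomato-only cells, with 34 of 46 measured Rabs above 0, and 0.07 in double-positive cells, with 29 of 48. Of Rabs named after their values were seen, Rab4a, of early endosomes, was at 0.84 and 0.52, Rab5a, also of early endosomes, at 0.70 and 0.69, and Rab6, of the Golgi, at 0.70 and 0.64, while Rab9, of late endosomes, was at -0.04 and -0.01 and Rab11b, a relative of Rab11a, at 0.05 and -0.07. Rab5a had 815 in tdTomato-only and 775 in double-positive cells, against 712 and 724 in EGFP-only cells.

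The regulators and effectors named after a Rab ranged, on the same scale, from -0.36 to 0.81 in tdTomato-only and from -0.31 to 0.75 in double-positive cells. Rab3gap2, a subunit of the enzyme that switches Rab3 off, was highest on both arrays, with 430 in tdTomato-only and 404 in double-positive cells, against 325 and 334 in EGFP-only cells (0.81 and 0.75). Rab3ip, the exchange factor Rabin8 that switches Rab8 on, was lowest on both, with 388 and 386 against 658 and 669 (-0.36 and -0.31). Rab11fip1, an effector of Rab11, had 0.32 and 0.15.

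Among the vesicle SNAREs, Vamp8, which acts in granule release from exocrine and goblet cells, had 1836 in tdTomato-only and 1450 in double-positive cells, against 1563 and 1713 in EGFP-only cells. Its log2 ratios were 0.85 and 0.47, and median centring turned the second to -0.19. Vamp2, the synaptobrevin of regulated exocytosis, had 151 and 133 against 106 and 107, and log2 ratios of 0.63 and 0.48, which the authors' deposited table put past 2-fold (1.24 and 1.02). Vamp3, or cellubrevin, of recycling endosomes, was the lowest member in double-positive cells. It had 412 in tdTomato-only and 263 in double-positive cells, against 665 and 652 in EGFP-only cells. Its log2 ratios were -0.28 and -0.90, the second a 1.86-fold lower level, and -1.17 in the authors' deposited table. Vamp3 also passed 2-fold lower in double-positive cells under quantile normalization (-1.01), with an offset of 0 (-1.03), with the blank mean subtracted (-1.06) and with median centring (-1.35). Vamp4 was at 0.15 and 0.16.

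**Figure D2:**
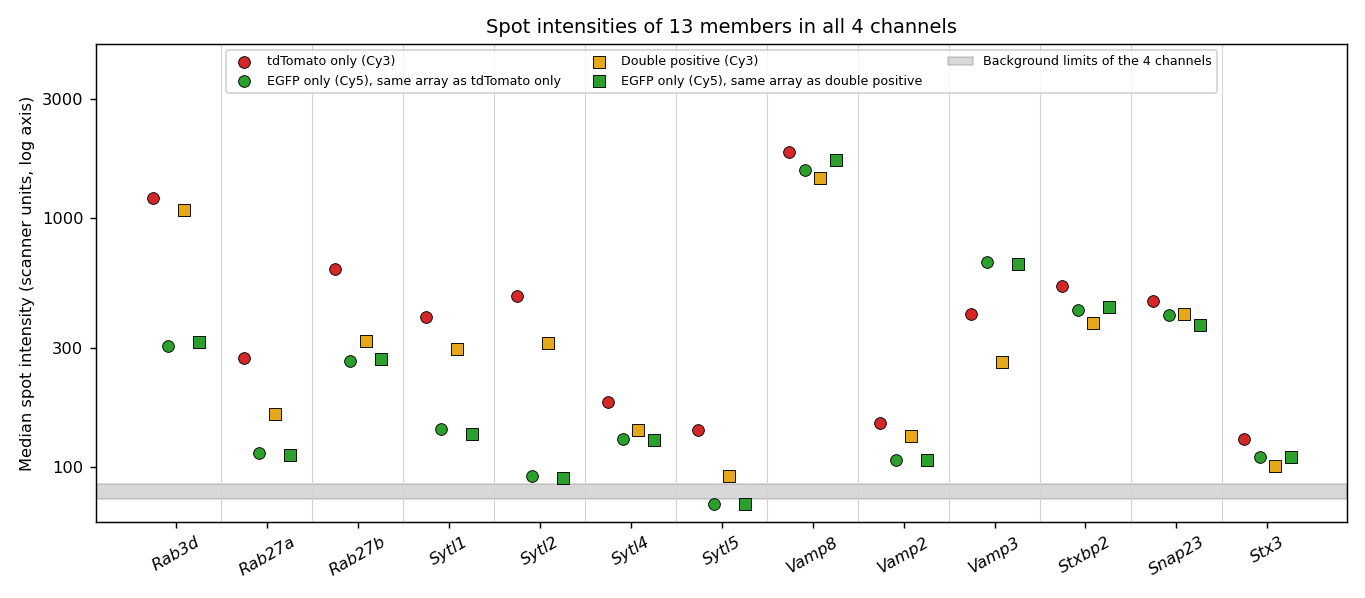
Median spot intensity (scanner units, log axis) of 13 members picked after their values were seen, in tdTomato-only and double-positive cells (Cy3), each beside EGFP-only cells from the same array (Cy5), 1 spot per point. The grey band spans the background limits of the 4 channels, from 74.1 to 85.4. Rab3d, Rab27a, Rab27b, Sytl1, Sytl2, Sytl4, Sytl5, Vamp2 and Snap23 lie above both EGFP-only values in both Cy3 populations, and Vamp3 below both. Sytl5 lies under the band in EGFP-only cells.

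All 12 syntaxins were measured, with medians of 0.22 in tdTomato-only and -0.03 in double-positive cells and none past 2-fold. Stx5a, the syntaxin of traffic between endoplasmic reticulum and Golgi, was highest in tdTomato-only cells, with 413 there and 302 in double-positive cells, against 281 and 289 in EGFP-only cells (log2 ratios 0.96 and 0.48). Stx18, of the endoplasmic reticulum, was highest in double-positive cells (0.69 in tdTomato-only and 0.60 in double-positive cells). Stx3, the syntaxin of the apical membrane, had 129 and 101 against 109 and 109, and log2 ratios of 0.28 and -0.14. Stx4a, its basolateral counterpart, had 0.21 in tdTomato-only cells and a value near 0 in double-positive cells. Stx7, of late endosomes, was lowest in double-positive cells (0.18 and -0.42), and Stx6, of the trans-Golgi network, in tdTomato-only cells (-0.29 and -0.11). Stx1a, the neuronal and endocrine syntaxin, had 213 in tdTomato-only and 199 in double-positive cells, against 294 and 300 in EGFP-only cells (-0.20 and -0.28). The enteroendocrine list had medians of -0.20 and -0.28 on the same arrays. At least 2-fold lower were 1 of 24 measured genes in tdTomato-only and 6 of 25 in double-positive cells, led by Neurog3 at -1.02 and -1.55. At least 2-fold higher were 1 gene of this list in tdTomato-only cells, Sct at 1.65, and 0 in double-positive cells. The medians were -0.56 and -0.91 in the authors' deposited table. Of the enteric neuron or glia genes, 4 of 11 were measured, none past 2-fold.

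SNAPs complete the bundle on the target membrane. Snap23, the widely expressed form, had 465 in tdTomato-only and 410 in double-positive cells, against 405 and 373 in EGFP-only cells, with log2 ratios of 0.62 and 0.62. Snap29 had 0.58 and 0.51. Snap25, the neuronal and endocrine form, had intensities of 79.5 to 91.0 and ratios near 0. Snap91 was above background in no channel.

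Stxbp2, or Munc18-2, the partner of Stx3 in granule release, was the highest syntaxin-binding protein in tdTomato-only cells, with 534 there and 378 in double-positive cells, against 427 and 437 in EGFP-only cells (0.77 and 0.26, the second -0.19 with median centring). Stxbp3a, the partner of Stx4, had 0.25 and 0.15. Stxbp6, or amisyn, was highest in double-positive cells (0.47 in tdTomato-only and 0.48 in double-positive cells). Stxbp5l, a tomosyn that competes for SNAREs, had 203 and 149 against 222 and 237, and log2 ratios of 0.12 and -0.46. Stxbp4 was lowest in tdTomato-only cells (-0.34) from a probe close to background. Its second probe was above background in double-positive cells but not in tdTomato-only cells.

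Of 16 synaptotagmins, 7 were measured, none past 2-fold. Their medians were 0.12 in tdTomato-only and 0.14 in double-positive cells. Syt7, a calcium sensor of granule and lysosome fusion, had 104 and 100 against 84.1 and 83.0, and log2 ratios of 0.21 and 0.22, which became 1.03 and 1.08 in the authors' deposited table. Syt17 was highest on both arrays (0.36 and 0.56) and Syt6 lowest (-0.23 and -0.21), both close to background. Syt13 had 0.11 and 0.14. Syt1, the main calcium sensor of synapses, was above background in double-positive cells alone, with 82.6 at a limit of 82.2, and Syt4 in no channel.

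Some further members had a level above background in 1 population of an array alone. Of the 111 members there were 5 such genes in tdTomato-only and 9 in double-positive cells, with 1 in EGFP-only cells on each array. Above background in neither channel were 14 and 8. Of all 16390 genes, 1041 were above background in tdTomato-only and 1383 in double-positive cells alone, 201 and 121 in EGFP-only cells alone, and 3765 and 3109 in neither channel. Sytl5 in tdTomato-only cells had the only bound past 2-fold, while 14 of all 16390 genes had such a bound, in either direction, on that array. Rab39b had 104 in tdTomato-only and 128 in double-positive cells, against 70.0 and 69.5 in EGFP-only cells, at least 1.35-fold and 1.96-fold higher. With bounds equal to their fitted ratios, Rab36 was at least 1.24-fold and 1.39-fold higher, and Syt3 at least 1.13-fold higher in double-positive cells. Syt14 was at least 1.03-fold and 1.07-fold higher. Rab33a was above background in EGFP-only cells alone, at least 1.09-fold and 1.10-fold lower in tdTomato-only and double-positive cells.

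The remaining comparison asked how the Atoh1 descendants without EGFP differed from those with it. For this, 1 array's log2 ratio was taken from the other's, so the EGFP-only denominator cancels as far as its readings on both arrays agree. Rab27b was the 1 member past 2-fold, 2.02-fold higher in tdTomato-only than in double-positive cells (log2 1.02), while of 11311 genes 0.813% passed 2-fold upwards and 0.274% downwards. Rab27a followed at 1.77-fold (0.82). The EGFP-only readings of these genes differed between arrays by -0.04 for Rab27b and less than 0.01 for Rab27a. Sytl2 (0.63), Vamp3 (0.62), Stx7 (0.60), Stxbp5l (0.58), Stxbp2 (0.50), Stx5a (0.48) and Rab8a (0.45) were also higher in tdTomato-only cells, without reaching 2-fold. So were Rab25 (0.44), Stx3 (0.42), Sytl4 (0.40), Stx17 (0.40), Rab1 (0.38), Vamp8 (0.38), Rab11a (0.37) and Sytl1 (0.36). The lowest member was Rab6ip1, the Rab exchange factor now named Dennd5a, at -0.35 with intensities of 93.7 in tdTomato-only and 105 in double-positive cells, close to background. Rab33b followed at -0.23. Stxbp5, another tomosyn, was the lowest syntaxin-binding protein at -0.02, and Syt15 the highest synaptotagmin at 0.01.

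By sign, 65 of 91 members were higher in tdTomato-only than in double-positive cells (71.4%, against 45.7% of all genes), with a median of 0.07, against -0.02 over all genes. The Rab GTPases had 38 of 46 above 0 with a median of 0.09, the syntaxins 10 of 12 with 0.21, and the synaptotagmins 1 of 7 with -0.02. Median centring turned 1 of the 65 members below 0. Likewise 60 of 94 members in the authors' deposited table were above 0 (63.8%, against 40.1% of all genes). In the same comparison goblet cell genes had a median of 0.97, with 7 of 14 at least 2-fold higher, and enterocyte genes 0.32. Paneth cell genes had -0.32 over 6 of 9 genes, as spots at the scanner's ceiling in both Cy3 populations were left out. Mmp7, Zg16 and Tff3 lay at the ceiling in 1 of these populations, so their differences are limits. All 13 lymphocyte genes were lower, with a median of -0.98. The part of these cell types in the differences of Rab27a and Rab27b was not tested. As the tdTomato-only and the double-positive cells had 1 array each, array and population cannot be told apart between them.

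**Figure D3:**
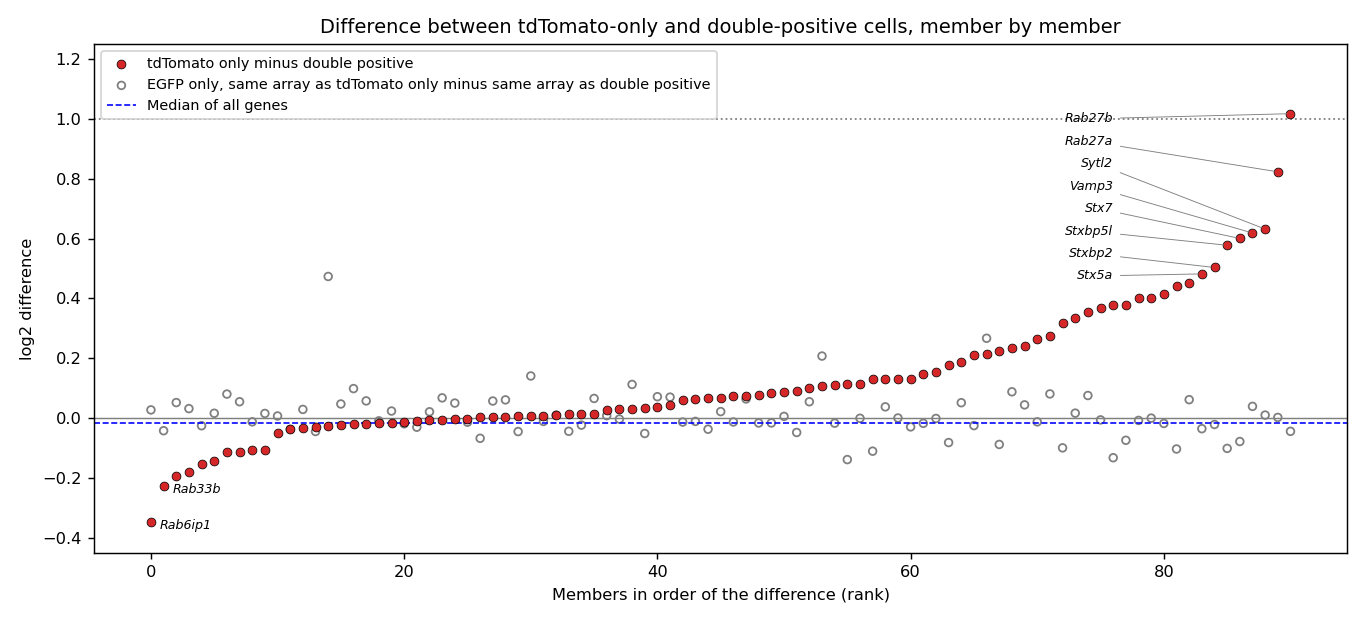
Log2 difference between tdTomato-only and double-positive cells for each of 91 members (red points, tdTomato minus double positive) in rank order along the horizontal axis, with the difference between the EGFP-only readings of the same gene on the same arrays as open circles, where both were measured. The dashed line is the median of all genes at -0.02 and the dotted line is 2-fold. Rab27b reaches 1.02 and Rab27a 0.82. The open circles reach 0.47 at most, and they hold no spread of the Cy3 channel, the sorting or the mice.

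Other genes of vesicle traffic, from lists of complexes that act with Rabs and SNAREs, did not reach 2-fold in any of the 3 comparisons under the main processing. In the authors' deposited table, 8 of 38 exchange factors and GTPase activating proteins were at least 2-fold higher in tdTomato-only and 6 of 36 in double-positive cells. So were 3 of 16 effectors, priming factors and motors on each array, Erc2 the highest (2.36 and 2.80). Of 4 SNARE disassembly genes, 2 passed it in tdTomato-only and 1 in double-positive cells, Napa the highest (1.12 and 1.22). The shares of all genes there were 12.8% and 12.2%. Between tdTomato-only and double-positive cells, Scfd2 was past 2-fold higher (1.23) and Dennd5a, the member Rab6ip1, lower (-1.02), against 1.76% of all genes in each direction. All 8 measured genes of the exocyst, the complex that tethers vesicles to the plasma membrane, lay between -0.32 and 0.40, with medians of -0.05 in tdTomato-only and 0.05 in double-positive cells, and Exoc5 was highest in tdTomato-only cells. Of the Rab effectors, priming factors and motors, 13 of 25 were measured in tdTomato-only cells (median 0.12) and 14 in double-positive cells (0.05). Mlph, the link from Rab27a to myosin, had 110 in tdTomato-only and 98.0 in double-positive cells, against 77.2 and 75.7 in EGFP-only cells, with log2 ratios of 0.46 and 0.30, and 2.15 and 1.93 in the authors' deposited table. Myo5b, the motor of Rab11 vesicles, had 0.46 and 0.14, and Unc13b, a priming factor, 0.39 and 0.21. The 4 SNARE disassembly genes had medians of 0.31 and 0.33. Napa, or alpha-SNAP, had 262 and 257 against 172 and 176 (0.92 and 0.93), and Nsf, the ATPase that separates used SNAREs, 0.22 and 0.13.

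The 12 other SNAREs of Golgi and endosomes had medians of 0.29 in tdTomato-only and 0.26 in double-positive cells. The highest were Bet1l, of transport within the Golgi, at 0.96 and 0.82, and Sec22b and Bet1, of traffic between endoplasmic reticulum and Golgi, at 0.85 and 0.69 and at 0.84 and 0.89. Sec22a, a relative of Sec22b, was lowest (-0.27 and -0.36). The 6 measured Rab prenylation and recycling genes had medians of 0.16 and 0.09 and included Rabggta and Rabggtb, the subunits of the enzyme that attaches the lipid anchor of Rabs, at -0.51 and -0.42 and at -0.36 and -0.35. Rabac1, a Rab acceptor, had 0.46 and 0.56. The exchange factors and GTPase activating proteins had medians of 0.05 over 35 genes in tdTomato-only and 0.10 over 36 in double-positive cells. Tbc1d8 was highest in tdTomato-only cells (0.94, and 0.95 in double-positive cells) and Tbc1d14 lowest (-0.54 and -0.20). Tbc1d15, which acts on Rab7, had 0.67 and 0.92. The 12 HOPS, CORVET and Sec1/Munc18 genes of endosomes and Golgi had medians of 0.07 and 0.06. Scfd1, the partner of Stx5a, had 0.67 and 0.45 and Vps33b 0.56 and 0.47.

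The authors' deposited log2 ratios put more members past 2-fold: 13 higher and 1 lower in tdTomato-only cells, and 12 higher and 2 lower in double-positive cells. The shares of all genes were also larger, 12.8% higher and 6.92% lower in tdTomato-only cells and 12.2% and 3.50% in double-positive cells. The members added in tdTomato-only cells were Rab30, Rab36, Rab39, Vamp2, Syt7, Syt17, Sytl3 and Sytl4. The member lower in tdTomato-only cells was Stxbp4 (-1.01), and those lower in double-positive cells were Vamp3 and Rab3c. Most of these spots had EGFP-only intensities near or under 100, where subtracting the blank mean leaves little signal in the denominator. Between tdTomato-only and double-positive cells the authors' deposited table put Rab27b alone past 2-fold higher (1.02), and Rab31 (-1.24) and Rab6ip1 (-1.02) past 2-fold lower, against 1.76% of all genes in each direction. Both were close to background.

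**Figure D4:**
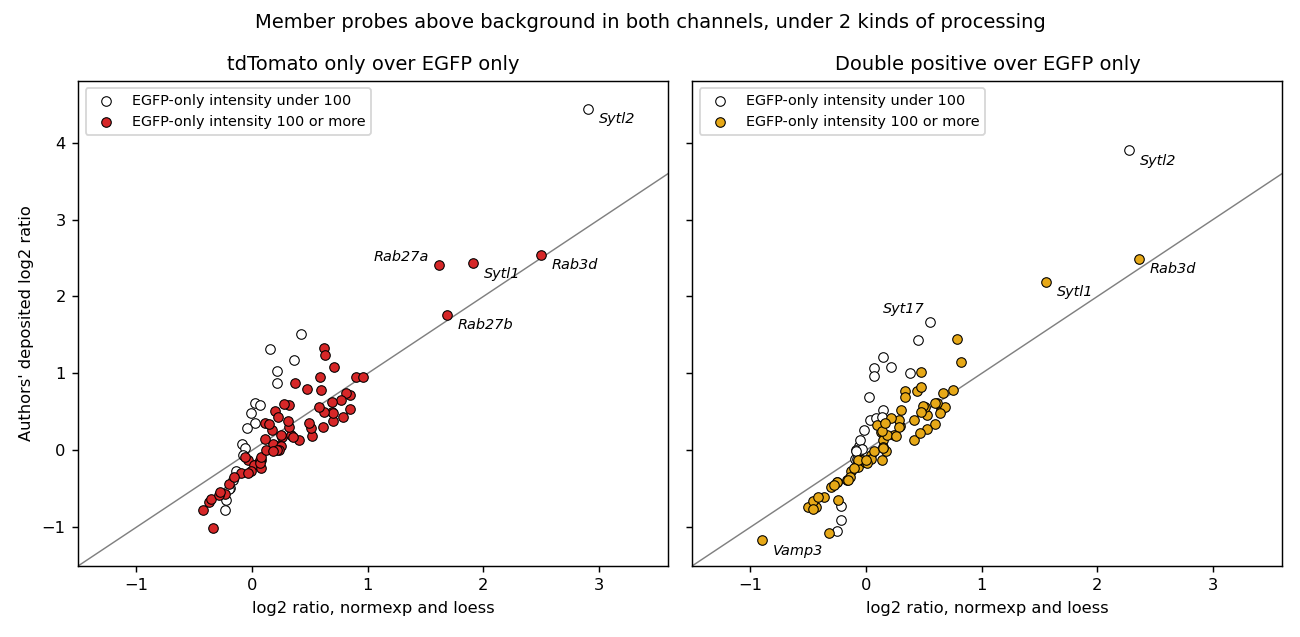
The authors' deposited log2 ratio (vertical axis) against the log2 ratio after normexp and loess (horizontal axis) for each member probe above background in both channels, tdTomato-only cells on the left and double-positive cells on the right. Open points have an EGFP-only intensity under 100, a split chosen after the values were seen, and lie mostly off the line of equal values; Rab3d lies on it (2.54 against 2.49 in tdTomato-only cells) and Sytl2 above it (4.44 against 2.91).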

How the data were processed

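Amplified RNA of the sorted cells was read on two-colour arrays made by Toray, per the labels' protocols. The authors deposited spot median intensity values for both dyes, per the file headers, and normalized log2 ratios, per the labels' descriptions. Recomputing the deposited log2 ratios as blank-subtracted, median-centred ratios gave the same value within 0.02 for 99.99% of probes or more. No genome build of the probe design was used.

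No local background was subtracted: normexp (offset 50) was followed by loess within each array, giving control and quality-marked spots no weight, in limma 3.58.1 under R 4.3.3. The offset shrinks the ratios of dim genes, so their folds may be understated, and close to background even the sign can depend on the processing. Each array had 27456 spots, of which 2736 were blank. A probe needed both channels past the blank mean plus 2 SD; probes of a gene were averaged. Arrays are too few for a test; their number limits the precision. The bounds of genes in 1 channel alone and the summed levels of the lists were taken after loess and Aquantile. The steps were tested on simulated data.

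Symbols are the platform's; 5 members have newer RefSeq names. Named are members past 2-fold, family extremes, the largest bounds, textbook exocytosis genes and up to 3 extremes of each of 17 lists. Members and lists were chosen with earlier results of these data known. The 8 alternatives are in the closing section.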

Additional observations from a re-analysis of the deposited data

Results flagged for a closer look

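Signals outside the measured set came from 9 genes whose current RefSeq symbol fits the name rule but whose older symbol on the platform does not. Each was above the double-positive background limit of 82.2, with intensities there of 113 for Rab43, 104 for Rab44, 1157 for Rab5if, 84.9 for Rab7b, 210 for Snap47, 99.2 for Stx19, 87.3 for Stx2, 222 for Vamp5 and 381 for Vamp7. Vamp5, a VAMP known from muscle and found under an accession-like name, had 454 in tdTomato-only and 222 in double-positive cells, against 235 and 231 in EGFP-only cells. Its log2 ratios to EGFP only were 1.37 and 0.29, and it was 1.09 higher in tdTomato-only than in double-positive cells. Vamp7, of lysosomal and apical exocytosis, had log2 ratios of 0.62 and 0.54. Rab44 had -0.02 and 0.41, against 0.41 and 2.11 in the authors' deposited table.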

How the results depend on the processing

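No member counted past 2-fold changed sign under the 8 alternatives. The members at least 2-fold higher in tdTomato-only cells, 5 in the report, numbered 13 in the authors' deposited ratios, 13 with the blank mean subtracted before loess and 11 with an offset of 0; those 2-fold lower, 0 in the report, numbered 1, 3 and 1. In double-positive cells the 3 higher members became 12, 8 and 7, and the 0 lower became 2, 3 and 2, and 1 with median centring and with quantile normalization. With no filter on dim probes, a limit of 4 SD or the brightest probe of each gene, the higher members numbered 6, 5 and 5 in tdTomato-only and 4, 3 and 3 in double-positive cells. The median log2 ratio in tdTomato-only cells was -0.0079 with median centring, 0.13 with quantile normalization and 0.31 with the blank mean subtracted; in double-positive cells it was -0.069, 0.053 and 0.25. Between tdTomato-only and double-positive cells, the 1 higher member became 0 with median centring and quantile normalization (Rab27b at 0.99 and 0.98), and 2 with the blank mean subtracted, with an offset of 0 and with updated symbols, which add Vamp5. The 0 lower members became 1 once the blank mean was subtracted and 2 in the authors' table. The share of all genes past 2-fold was computed only for the main processing and the authors' ratios. In the authors' ratios the share at least 2-fold higher was also larger, 12.8% against 6.15% in tdTomato-only and 12.2% against 5.10% in double-positive cells. The counts under the other alternatives have no such share beside them and say nothing about the members as a set. Rab3d, Sytl1 and Sytl2 stayed past 2-fold on both arrays, and Rab27a and Rab27b in tdTomato-only cells, under every alternative run. No paired analysis was possible because the tdTomato-only and double-positive populations have 1 array each, with no replicate numbers to pair. Intensities near the background limit bound what can be said of most synaptotagmins.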
